A study of Mus musculus with 8 samples.

Results

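RNA-seq data of Tspan8pos medullary thymic epithelial cells (mTECs) were compared between cells with low and cells with high MHC class II (MHCII) on the surface. The comparison uses 4 of the 8 libraries in the series, chosen by their labels: 2 replicates of Tspan8posMHCIIlo and 2 replicates of Tspan8posMHCIIhi. All 8 libraries came from wild type mice, which were a few weeks old by the study's methods, without any transgene or treatment. The libraries of Tspan8negMHCIIlo and Tspan8negMHCIIhi entered the same fit, so they bear on its filter, scaling and shared estimate of the spread. Their values are given below where both Tspan8 levels are set against each other. The cells were sorted from thymus as CD45neg, Epcam-positive and CDR1neg, with gates on the tetraspanin Tspan8 and on MHCII, so the groups are gates on surface protein and the MHCIIlo gate can hold cells from before and after the MHCIIhi stage. The labels call the replicates biological, but do not say how many mice went into a library, so p-values measure the spread between these libraries. All differences are given as Tspan8posMHCIIlo minus Tspan8posMHCIIhi on the log2 scale, and levels as CPM, counts scaled to a common library total and to library composition by TMM.

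mTECs present peptides from the body's own proteins to developing T cells, and for this they transcribe many tissue-restricted antigens (TRAs), genes otherwise confined to single organs. The transcriptional regulator Aire and the zinc finger factor Fezf2 each contribute to this promiscuous gene expression. Mature mTECs carry much MHCII, and cells that have passed this stage include keratinocyte-like cells and thymic tuft cells, chemosensory cells that use the taste transduction pathway and depend on the factor Pou2f3. Tspan8 is itself a TRA, so Tspan8pos cells are those in which this particular antigen is on.

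MHCII genes are switched on by Ciita, a coactivator that does not bind DNA but joins the factors that sit on a shared promoter module, in which the X box and the Y box are the best known elements. The 140 bases upstream of the RefSeq start are shown for 4 of the MHCII genes that were lower in Tspan8posMHCIIlo, because they let the module be seen beside the values of the genes it belongs to. The letters in capitals mark the Y box core GATTGG on either strand and, in H2-Eb1 and H2-Eb2, the X box letters AACNGATG. The sequences are on the strand of the gene in GRCm38.p6, at chr17:34287824-34287963 (minus strand) for H2-Aa and at chr17:34305727-34305866, chr17:34325535-34325674 and chr17:34238765-34238904 (plus strand) for H2-Eb1, H2-Eb2 and H2-Ob.
H2-Aa: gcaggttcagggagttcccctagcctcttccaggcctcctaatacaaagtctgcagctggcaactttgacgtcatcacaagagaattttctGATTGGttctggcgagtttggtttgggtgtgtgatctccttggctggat
H2-Eb1: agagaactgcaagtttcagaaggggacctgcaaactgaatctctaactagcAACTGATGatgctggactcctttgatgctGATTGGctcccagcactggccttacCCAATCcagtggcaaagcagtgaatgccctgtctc
H2-Eb2: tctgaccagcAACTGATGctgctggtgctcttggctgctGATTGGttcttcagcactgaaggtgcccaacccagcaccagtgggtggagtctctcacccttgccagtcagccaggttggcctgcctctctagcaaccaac
H2-Ob: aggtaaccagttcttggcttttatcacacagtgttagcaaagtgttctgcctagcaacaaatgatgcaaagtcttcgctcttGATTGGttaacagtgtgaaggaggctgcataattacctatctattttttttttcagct

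The Y box core began 49 bases before the start in H2-Aa, 60 in H2-Eb1, 101 in H2-Eb2 and 58 in H2-Ob. The X box letters began 29 bases ahead of the Y box core in both H2-Eb1 and H2-Eb2, and 30 bases ahead of it in H2-DMb1 and H2-DMb2. Of the 14 genes of the MHCII list 11 had a window, of which 7 held the Y box core and 4 held both sets of letters. Over all 32851 promoter windows of the same length, 10.5% held the Y box core, 1.06% the X box letters and 0.0944% both, with both strands searched. The X box letters were written down with these sequences in view, and a match is a match of letters only. A window without these exact letters, such as that of H2-Aa or H2-Ob, is not shown to lack an X box.

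The Tspan8posMHCIIhi libraries held 5432321 and 5161456 counts, and the Tspan8posMHCIIlo libraries 1941518 and 7783841, so the shallowest and the deepest library of the series are replicates of 1 group. A floor of 3 counts corresponds to between 0.41 and 1.65 CPM in these 4 libraries and covers counting error only. Tspan8 stood at 404 and 352 CPM in Tspan8posMHCIIhi and at 347 and 366 CPM in Tspan8posMHCIIlo, against 3.65 to 14.6 CPM in the 4 Tspan8neg libraries, so both groups carried the transcript of their gate at overlapping levels. The 9 epithelial and mTEC markers, such as Epcam, Krt8, Krt18 and Pax9, were all detected, and none was called by edgeR or DESeq2, with 2 at an unadjusted p under 0.05. Mitochondrial transcripts took 0.661% and 0.688% of counts in Tspan8posMHCIIhi and 0.626% and 0.77% in Tspan8posMHCIIlo.

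Low MHCII went with more losses than gains over all genes tested, but not among genes of high level. Of 17006 genes tested, 780 (4.59%) were lower and 446 (2.62%) were higher in Tspan8posMHCIIlo at an adjusted p under 0.01 and at least a 2-fold change, the rule for a call throughout, so that 1226 genes (7.21%) were called and 63.6% of them were lower. The losses were also larger, with 436 of the lower genes past a 4-fold change against 147 of the higher ones. They lay mostly in genes of modest level: the lower genes had a median of 25.9 CPM in Tspan8posMHCIIhi, the higher genes a median of 69.1 CPM in Tspan8posMHCIIlo. A mean over 100 CPM was reached by 151 lower genes in Tspan8posMHCIIhi and by 166 higher genes in Tspan8posMHCIIlo. In 49 lower genes neither Tspan8posMHCIIlo library held a single count, while the reverse was true of 3 higher genes. At or under a floor of 3 counts in both libraries of the group with less were 135 lower genes (17.3%) and 6 higher genes (1.35%). Leaving out replicate 1 or 2 of Tspan8posMHCIIhi left 226 and 251 higher and 449 and 400 lower genes. Without replicate 1 of Tspan8posMHCIIlo these counts were 267 and 453, and without replicate 2, the deepest library, 199 and 228, of which 53.4% were lower. No gene called with all libraries changed its direction in any of these fits.

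**Figure D1:**
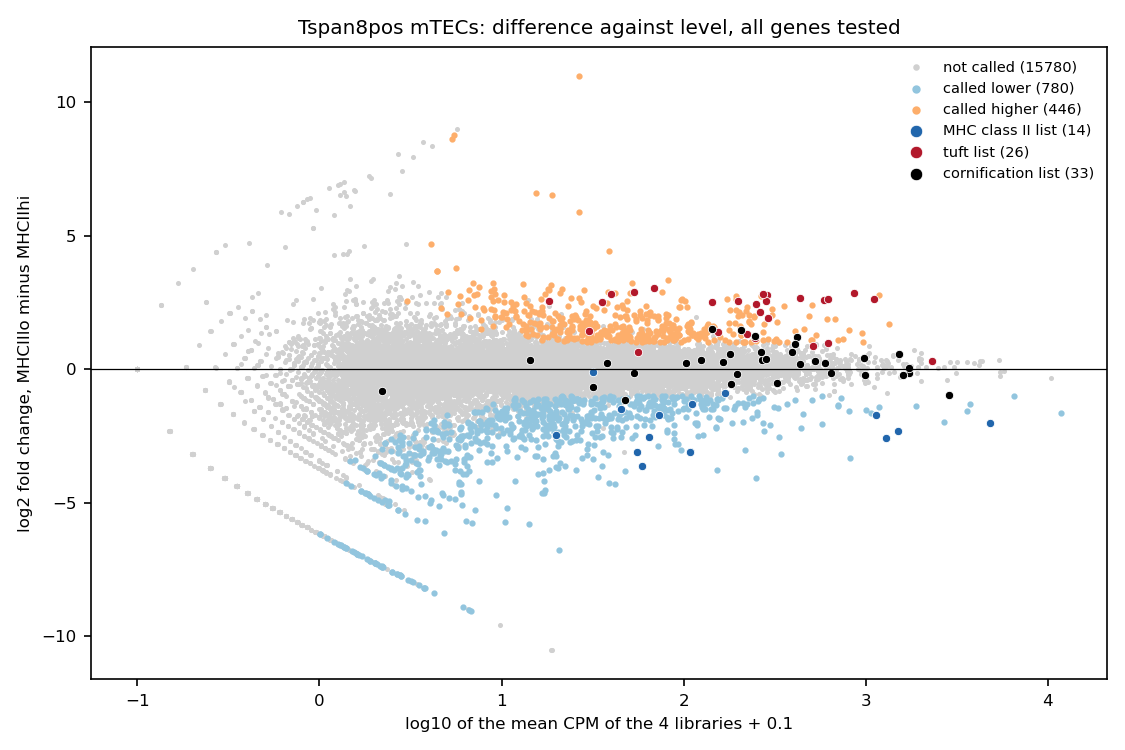
Each point is 1 of the 17006 genes tested, with the log10 of its mean CPM over the 4 Tspan8pos libraries (plus 0.1) on the x axis and its log2 fold change, MHCIIlo minus MHCIIhi, on the y axis, with called genes in light colour and the MHCII, tuft and cornification lists in dark colour. Of the 780 lower genes 436 lie past a 4-fold change, against 147 of the 446 higher genes. The line of points at the lower left holds genes without a count in either Tspan8posMHCIIlo library.

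Tspan8posMHCIIlo libraries also contained fewer different transcripts. With every library thinned to the total of the smallest, 18173 and 18552 genes had at least 1 count in Tspan8posMHCIIlo, against 19276 and 19531 in Tspan8posMHCIIhi, so that their mean dropped by 1041 genes and the groups did not overlap. The mean dropped by 665.5 genes at a minimum of 3 counts and dropped by 309.5 at a minimum of 10. Groups of 2 libraries cannot go below p = 0.333 in a two-sided exact permutation test, and this difference was not tested. In Tspan8neg cells the same counts were 18454 and 18860 in MHCIIlo and 20873 and 21081 in MHCIIhi.

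MHCII genes, which describe the gate, were lower as a group. Of the 14 genes of the list, 12 were lower, with log2 fold changes from -3.62 to -1.31 and a median over the list of -2.18, against a median of -0.007 over all genes tested. H2-Aa, the alpha chain of the I-A molecule, stood at 2177 and 2237 CPM in Tspan8posMHCIIhi and at 385 and 364 CPM in Tspan8posMHCIIlo (log2 fold change -2.56, SE 0.13, adjusted p = 3.32e-06). Its partner H2-Ab1 stood at 2431 and 2619 CPM against 518 and 489 CPM. Both chains therefore lay in non-overlapping ranges, as did 58.1% of all genes tested. Cd74, the invariant chain that escorts MHCII, fell from 7464 and 7952 CPM to 1974 and 1818 CPM (log2 fold change -2.02, SE 0.12). The largest difference of the list was in H2-Eb2, an E beta paralog, at 116 and 103 CPM against 9.34 and 8.74 CPM (log2 fold change -3.62, SE 0.17, adjusted p = 3.32e-06). H2-Eb1, whose promoter shares the spacing of the X and Y boxes with that of H2-Eb2, had a smaller difference of -1.73 (SE 0.14).

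Peptide loading and its regulators moved with the chains. H2-DMb2, a chain of the DM molecule that loads peptides, stood at 180 and 206 CPM in Tspan8posMHCIIhi and at 23.6 and 21.6 CPM in Tspan8posMHCIIlo (log2 fold change -3.11, SE 0.18). H2-Oa, a chain of the DO molecule that restrains DM, stood at 103 and 94.9 CPM against 10.99 and 11.7 CPM (log2 fold change -3.10, SE 0.18). Ciita was at 100 and 119 CPM against 19.2 and 18.6 CPM, a log2 fold change of -2.54 (SE 0.16, adjusted p = 6.19e-06). Cathepsin S, encoded by Ctss, which trims the invariant chain, was also lower, at 116 and 111 CPM against 29.1 and 37.4 CPM. The thiol reductase gene Ifi30 (log2 fold change -0.89, adjusted p = 0.00205) missed the fold limit and Lgmn, a further endosomal protease gene, stood at 35.9 and 30.1 CPM against 29.1 and 31.0 CPM. Without replicate 2 of Tspan8posMHCIIlo the count of lower genes was 10, with H2-DMa, H2-DMb1 and H2-Ob not called and Ifi30 called.

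Of other MHCII-bearing cells, markers of B cells and dendritic cells were scarce in all 4 libraries. Those of macrophages had a lower sum in Tspan8posMHCIIlo. The 5 B cell markers summed to 24.9 and 29.5 CPM in Tspan8posMHCIIhi and to 51.7 and 41.8 CPM in Tspan8posMHCIIlo, and the 7 dendritic cell markers to 47.6 and 45.5 CPM against 37.4 and 39.5 CPM, without a call in either list by edgeR. DESeq2 called 1 B cell marker higher and no dendritic cell marker, and at an unadjusted p under 0.05 there were 1 and 2 genes. The macrophage markers summed to 323 and 330 CPM against 126 and 115 CPM, most of it from Lyz2, the 1 marker of 6 that edgeR called, at 244 and 236 CPM against 71.5 and 63.8 CPM. The defining macrophage genes Adgre1 (1.99 and 4.47 CPM against 0 and 0.956 CPM) and C1qa (4.18 and 7.92 CPM against 0.550 and 0.546 CPM) were above the floor in Tspan8posMHCIIhi and near or under it in Tspan8posMHCIIlo, so these markers had lower values together with the MHCII genes. All 4 macrophage markers with an unadjusted p under 0.05 had lower values, DESeq2 called 2 markers of the list lower, and a replicate block or a fit of the 4 Tspan8pos libraries alone called 3, C1qa among them (log2 fold change -3.68, adjusted p = 0.00776 with the block). The call of Lyz2 was lost without replicate 2 of Tspan8posMHCIIlo. The part of these cells in the MHCII values was not tested, and in bulk libraries fewer cells of a type and less RNA per cell cannot be told apart.

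None of 13 genes of the MHC class I pathway was called by edgeR or by DESeq2, with log2 fold changes between -0.79 and 0.33, and 4 had an unadjusted p under 0.05, all of them with lower values. H2-K1, a classical class I heavy chain, stood at 5697 and 6037 CPM in Tspan8posMHCIIhi and at 5670 and 5643 CPM in Tspan8posMHCIIlo. Tap1, which carries peptides into the endoplasmic reticulum, stood at 316 and 331 CPM against 357 and 387 CPM. The proteasome activator gene Psme2, at the lower end of this range, passed the p threshold but not the fold limit (adjusted p = 0.0019).

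Aire was among the genes with the largest losses. It stood at 402 and 541 CPM in Tspan8posMHCIIhi and at 14.8 and 35.4 CPM in Tspan8posMHCIIlo (log2 fold change -4.09, SE 0.29, adjusted p = 9.95e-06), in ranges more than 10-fold apart. Dnmt3l, a catalytically inactive relative of the DNA methyltransferases, was at 10.6 and 12.2 CPM against 0.550 and 0.410 CPM, at or under the floor in Tspan8posMHCIIlo. Aire (chr10:78030022-78043610) and Dnmt3l (chr10:78041947-78063622) overlap on opposite strands, and the sources differ on whether the libraries kept strand, so reads of the 2 genes cannot be told apart where they overlap. Fezf2 lay at the limit of the call, at 299 and 346 CPM against 136 and 183 CPM (log2 fold change -1.0, SE 0.17, adjusted p = 0.0019). That call was lost with a minimum of 10 counts in 2 libraries, and without replicate 2 of Tspan8posMHCIIhi, replicate 1 of Tspan8posMHCIIlo or replicate 2 of Tspan8negMHCIIlo. The other 10 members, among them the chromatin remodeller gene Chd4 (log2 fold change 0.36), were not called by edgeR. DESeq2 called 4 genes of the list lower, where edgeR called 3.

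Genes of the exchange between mTECs and T cells were lower as well. Of 12 genes of costimulation and coinhibition 7 were lower. Without replicate 2 of Tspan8posMHCIIhi or replicate 1 of Tspan8posMHCIIlo the count was 4, and without replicate 2 of Tspan8posMHCIIlo it was 3. Cd40, the receptor through which T cells act on mTECs, stood at 58.0 and 52.2 CPM against 13.2 and 10.2 CPM (log2 fold change -2.31, SE 0.18). Tnfsf9, the ligand of 4-1BB, stood at 55.8 and 56.9 CPM against 7.15 and 10.8 CPM (log2 fold change -2.53, SE 0.20), and Icosl at 143 and 153 CPM against 55.0 and 53.1 CPM. Cd80, a ligand of CD28, stood at 56.4 and 45.5 CPM against 14.8 and 14.1 CPM (log2 fold change -1.83, SE 0.27). Its call was lost without replicate 1 of Tspan8posMHCIIhi or either replicate of Tspan8posMHCIIlo. The inhibitory ligand gene Cd274 was at 353 and 287 CPM against 230 and 186 CPM and was not called (adjusted p = 0.0865).

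Of 16 chemokine genes 7 were lower. Leaving out replicate 1 or 2 of Tspan8posMHCIIhi left 3 and 4 of them lower, and leaving out replicate 1 or 2 of Tspan8posMHCIIlo 3 and 2. Ccl5 stood at 56.2 and 48.2 CPM against 7.15 and 6.28 CPM (log2 fold change -3.00, SE 0.21). Ccl19, a ligand of CCR7 that guides thymocytes into the medulla, stood at 50.4 and 64.2 CPM against 8.25 and 4.51 CPM (log2 fold change -3.38, SE 0.27). Its neighbour in function, Ccl21a, stood at 377 and 359 CPM against 628 and 393 CPM and was not called. Of 17 genes of the RANK, CD40 and lymphotoxin pathways, 2 were lower: Tnfrsf11a, which encodes RANK, at 135 and 128 CPM against 63.8 and 66.8 CPM, and Tnfrsf11b, its decoy partner osteoprotegerin, at 188 and 156 CPM against 73.7 and 81.1 CPM. The calls of both were lost without replicate 1 of Tspan8posMHCIIhi and without either replicate of Tspan8posMHCIIlo, and that of Tnfrsf11a also without replicate 2 of Tspan8posMHCIIhi and with a replicate block. Among 21 interferon-stimulated genes Irf8, a factor of myeloid and B cells, was lower (log2 fold change -1.50) and the antiviral sensor gene Oas2 was higher (2.06). The other 19 were not called.

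**Figure D2:**
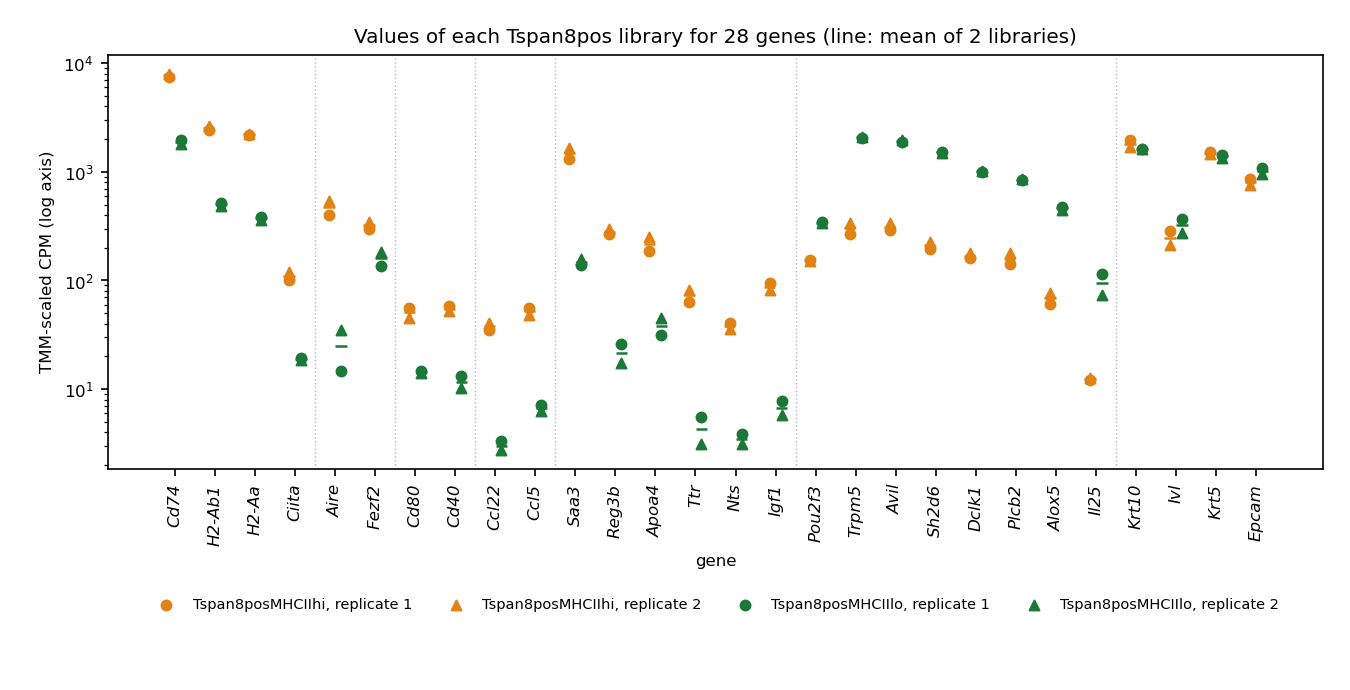
Points give the TMM-scaled CPM of 28 genes, on a log axis, in each of the 4 Tspan8pos libraries, with colour for the group, shape for the replicate and a line at the mean of 2 libraries. The MHCIIhi points lie above the MHCIIlo points for the MHCII, Aire, ligand, chemokine and antigen genes on the left and below them for the tuft and taste genes, while the points for Krt10, Krt5 and Epcam on the right lie close together.

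The lost antigen genes fell into several organ groups. Of 18 acute phase and antimicrobial genes 10 were lower, and 6 without either replicate of Tspan8posMHCIIlo. Saa3, a serum amyloid A gene, stood at 1319 and 1665 CPM against 139 and 158 CPM (log2 fold change -3.32, SE 0.22, adjusted p = 7.69e-06). The related gene Saa2 stood at 24.5 and 30.1 CPM against 1.65 and 0.137 CPM, where the floor of 3 counts is 1.65 and 0.41 CPM, and counts can be split among these similar genes. Lypd8, a secreted protein of the colon that keeps bacteria off the epithelium, stood at 556 and 674 CPM against 57.7 and 75.1 CPM. Reg3g, a lectin that binds bacteria and the member of highest level, stood at 4848 and 5726 CPM against 2018 and 2279 CPM (log2 fold change -1.30, SE 0.25), a call lost when any of the 4 Tspan8pos libraries was left out. The related gene Reg3b was at 267 and 298 CPM against 25.8 and 17.5 CPM (log2 fold change -3.79, SE 0.28), and Nos2, the inducible nitric oxide synthase, at 582 and 560 CPM against 92.9 and 100.2 CPM. Wfdc2, an antimicrobial gene of airway epithelium, stood at 629 and 629 CPM against 807.5 and 762 CPM and was not called (adjusted p = 0.321).

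Genes of gut and liver were lower in 11 of 21 cases and higher in 1, with 6 lower without replicate 2 of Tspan8posMHCIIlo. Apolipoprotein B, encoded by Apob, stood at 37.8 and 43.7 CPM against 4.95 and 2.73 CPM (log2 fold change -3.62, SE 0.33). Aoc1, the diamine oxidase of the gut, stood at 404 and 377 CPM against 42.9 and 50.6 CPM (log2 fold change -3.04, SE 0.19). Apoc2 held 400 counts over the Tspan8posMHCIIhi libraries and 3 over those of Tspan8posMHCIIlo, a ratio of 123 with a counting interval (95%) from 41.7 to 597. The water channel gene Aqp8 held 133 counts against 0, at least 13-fold lower against a floor of 3 counts per library. Ttr, the carrier of thyroid hormone, stood at 63.9 and 82.5 CPM against 5.497 and 3.14 CPM (log2 fold change -4.28, SE 0.31). Pck1, an enzyme of glucose synthesis in the liver, stood at 70.7 and 90.2 CPM against 2.20 and 4.64 CPM, and Ces2a, a liver and gut esterase, at 31.5 and 31.9 CPM against 2.20 and 0.956 CPM. The 1 higher gene was Cdhr2, a cadherin of the brush border (log2 fold change 1.01), whose call was lost in 11 of 17 alternative fits, among them DESeq2 and those without either replicate of Tspan8posMHCIIhi or of Tspan8posMHCIIlo.

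Peptide hormone genes were lower in part, at low levels. Of 19 hormone genes tested (of 21 listed) 11 were lower, with a median log2 fold change of -3.04, or -2.86 with genes that had no count in 1 group set at their bound. Without replicate 1 or 2 of Tspan8posMHCIIhi 7 and 4 were lower, and without replicate 1 or 2 of Tspan8posMHCIIlo 5 and 3. Igf1, insulin-like growth factor 1, stood at 94.6 and 81.3 CPM against 7.70 and 5.73 CPM (log2 fold change -3.81, SE 0.30, adjusted p = 1.88e-05). Nts, the gut peptide neurotensin, stood at 40.4 and 36.0 CPM against 3.85 and 3.14 CPM, and Calca, encoding calcitonin, at 37.4 and 36.0 CPM against 7.70 and 6.96 CPM. Gal, the neuropeptide galanin, held 121 counts in Tspan8posMHCIIhi and 0 in Tspan8posMHCIIlo, at least 11.8-fold lower. Sst, somatostatin, held 197 counts against 3, a ratio of 60.4 with a counting interval (95%) from 20.4 to 295, but its replicates were uneven, at 6.17 and 33.7 CPM in Tspan8posMHCIIhi. Its call was lost by DESeq2, without replicate 2 of Tspan8posMHCIIhi, either replicate of Tspan8posMHCIIlo or either of Tspan8negMHCIIhi. Tac2, the precursor of neurokinin B, stood at 24.9 and 16.9 CPM against 0 and 0.683 CPM. In contrast, Iapp, the islet peptide amylin, was at 152 and 179 CPM against 85.2 and 101 CPM and was not called (adjusted p = 0.0129). The call of Gal was lost without replicate 2 of Tspan8posMHCIIlo.

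Other secretory programmes were lower in part. Among milk protein and pancreatic enzyme genes 6 of 13 tested (of 21 listed) were lower, such as Ctrb1, chymotrypsinogen, at 43.2 and 29.3 CPM against 3.30 and 3.96 CPM (log2 fold change -3.25, SE 0.35), and Csn2, beta-casein, at 238 and 254 CPM against 84.1 and 94.5 CPM. Without replicate 2 of Tspan8posMHCIIlo 1 of the 13 was lower, and 2 with every library thinned to the smallest total. The call of Csn2 was lost without replicate 2 of Tspan8posMHCIIhi or either replicate of Tspan8posMHCIIlo. Of 16 goblet cell and mucus genes 6 were lower and 1 higher. Without replicate 1 or 2 of Tspan8posMHCIIhi 3 and 2 were lower, and without replicate 2 of Tspan8posMHCIIlo 3, while none was higher without any 1 of the 4 Tspan8pos libraries. Tff3, a trefoil peptide of goblet cells, stood at 167 and 205 CPM against 37.4 and 51.3 CPM, and the membrane mucin gene Muc13 at 661 and 721 CPM against 195 and 234 CPM. Fcgbp, a mucus protein and the protein-coding gene of highest level among the lower genes, stood at 8737 and 8680 CPM against 4147 and 4464 CPM (log2 fold change -1.02, SE 0.16), a call lost when any of the 4 Tspan8pos libraries was left out.

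Further genes among the strongest losses came from no single organ. Hdc, which makes histamine, stood at 189 and 205 CPM against 22.5 and 23.8 CPM (log2 fold change -3.08, SE 0.15, adjusted p = 3.32e-06). The cytokine gene Il13 stood at 31.3 and 34.7 CPM against 0.550 and 1.502 CPM (log2 fold change -4.65, SE 0.31), and Krt9, a keratin of palm and sole skin, at 34.7 and 31.9 CPM against 1.10 and 1.502 CPM. Both were close to the floor in Tspan8posMHCIIlo. The pancreatic and gut lectin gene Reg1 stood at 30.9 and 34.3 CPM against 0.550 and 2.18 CPM, and Tm4sf20, a membrane protein, at 23.7 and 21.1 CPM against 1.10 and 1.23 CPM, a call lost without replicate 2 of Tspan8posMHCIIlo. The noncoding transcripts Gm43305 (log2 fold change -1.65), Gm42427 (-1.57) and Gm42031 (-1.98) were lower too, the first with 18257 and 17547 CPM in Tspan8posMHCIIhi against 5503 and 5881 CPM in Tspan8posMHCIIlo.

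The gains were led by thymic tuft cell genes. Of 26 identity and effector genes of tuft cells 22 were higher, with log2 fold changes from 1.15 to 3.05 among the called genes and a median over the list of 2.53. Pou2f3 (chr9:43123939-43210369), the factor on which tuft cells depend, stood at 156 and 151 CPM in Tspan8posMHCIIhi and at 342 and 338 CPM in Tspan8posMHCIIlo (log2 fold change 1.15, SE 0.15, adjusted p = 0.000414). Dclk1, a kinase used as a tuft cell marker, stood at 161 and 178 CPM against 1005 and 1022 CPM (log2 fold change 2.58, SE 0.17). Avil, the actin regulator advillin, stood at 289 and 336 CPM against 1873 and 1952 CPM (log2 fold change 2.61, SE 0.16), and Bmx, a tyrosine kinase of tuft cells, at 78.1 and 76.4 CPM against 430 and 410 CPM (log2 fold change 2.44, SE 0.14). The smallest difference among the called members was thus in the factor itself. Sh2d6, an adaptor of tuft cells, had the larger log2 fold change of 2.84 (SE 0.19).

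The products by which tuft cells act on their surroundings were higher in the same libraries. Il25, the cytokine that tuft cells send to innate lymphoid cells, stood at 12.2 and 12.6 CPM against 114 and 73.6 CPM (log2 fold change 2.89, SE 0.25), and its receptor chain gene Il17rb at 34.9 and 49.8 CPM against 235 and 250 CPM. Chat, which makes acetylcholine, stood at 9.16 and 20.5 CPM against 114 and 131 CPM (log2 fold change 3.05, SE 0.34). Among signalling genes that tuft cells share with blood cells, Vav1 stood at 78.9 and 86.4 CPM against 483 and 487 CPM. Siglecf stood at 4.38 and 6.10 CPM against 34.1 and 27.9 CPM. The 4 members not called were Spib, Tuba1a, Krt18 and Il13ra1, with log2 fold changes of 0.99, 0.87, 0.31 and 0.63.

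Taste transduction genes were higher from receptor to channel. Of 12 genes tested (of 14 listed) 10 were higher. Trpm5 (chr7:143069153-143094642), the cation channel at the end of the cascade, stood at 269 and 335 CPM against 2046 and 2107 CPM (log2 fold change 2.78, SE 0.18, adjusted p = 7.17e-06). The G protein subunit genes Gnb3 (69.3 and 91.2 CPM against 366 and 356 CPM) and Gng13 (27.7 and 22.8 CPM against 124 and 85.9 CPM) and the phospholipase gene Plcb2 (141 and 178 CPM against 836 and 863 CPM) were higher. Of the calcium release channels, Itpr2 was higher (log2 fold change 1.41, SE 0.14) and Itpr3, the one used in taste buds, was not called (0.12, SE 0.14). Ano7, an anoctamin, stood at 96.4 and 116 CPM against 505 and 512 CPM. The umami and sweet receptor chain Tas1r3 stood at 10.95 and 13.4 CPM against 49.5 and 48.5 CPM. Bitter receptor genes were at low levels, and their sum was 10.4 and 14.6 CPM against 64.3 and 88.5 CPM. Of 35 Tas2r genes 13 could be tested, and 11 had an unadjusted p under 0.05 by edgeR, all with higher values. The 2 called higher were Tas2r108 (1.195 and 2.84 CPM against 14.3 and 16.1 CPM) and Tas2r138 (0.797 and 0.406 CPM against 8.80 and 7.37 CPM). The call of Tas2r108 was lost without replicate 1 of Tspan8posMHCIIhi or replicate 2 of Tspan8posMHCIIlo, and that of Tas2r138 without any 1 of the 4 Tspan8pos libraries.

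Eicosanoid enzyme genes changed in both directions. The leukotriene genes Alox5 (60.9 and 76.8 CPM against 479 and 446 CPM), Alox5ap (40.4 and 61.4 CPM against 341 and 333 CPM) and Ltc4s (20.5 and 28.2 CPM against 104 and 83.5 CPM) were higher. Lta4h, which leads to leukotriene B4, stood at 59.0 and 61.4 CPM against 42.3 and 48.7 CPM and was not called. Of the cyclooxygenases, Ptgs1 was higher (45.2 and 52.4 CPM against 304 and 293 CPM, log2 fold change 2.61, SE 0.17) and Ptgs2 was lower (343 and 248 CPM against 66.0 and 76.7 CPM, log2 fold change -2.04, SE 0.19). Of the prostaglandin D synthases, Ptgds was lower (61.3 and 59.7 CPM against 12.1 and 9.83 CPM) and Hpgds stood at 113 and 88.8 CPM against 148 and 137 CPM. Together the tuft, taste and eicosanoid lists hold 53 genes, of which 50 were tested, 36 were higher and 2 lower. Leaving out any 1 of the 8 libraries left between 31 and 36 higher.

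Marker lists of several other cell types also had higher sums in Tspan8posMHCIIlo, but edgeR called genes only among the endothelial and erythroid markers. The 5 endothelial markers summed to 27.1 and 25.8 CPM in Tspan8posMHCIIhi and to 110 and 88.7 CPM in Tspan8posMHCIIlo, and 3 of them were called higher. The 8 thymocyte markers summed to 75.7 and 116 CPM against 129 and 229 CPM, of which Ptprc, encoding the CD45 that the sort gated out, stood at 17.3 and 25.0 CPM against 54.4 and 72.9 CPM (adjusted p = 0.0169, not called). None of the 8 was called by edgeR and 1, Ptprc, by DESeq2, and 1 had an unadjusted p under 0.05. Cd3e, the defining T cell gene of that list, stood at 2.59 and 2.84 CPM against 3.85 and 6.96 CPM. The cortical thymic epithelial markers summed to 318 and 331 CPM against 432 and 486 CPM and the fibroblast markers to 65.1 and 65.0 CPM against 73.1 and 89.5 CPM, with none of 6 called by edgeR in either list. At an unadjusted p under 0.05 there were 4 cortical markers, 2 with higher and 2 with lower values, and 3 fibroblast markers, all with higher values, and DESeq2 called 1 fibroblast marker higher and no cortical marker. Of the erythroid markers, which summed to 32.1 and 37.0 CPM against 53.3 and 49.96 CPM, 1 of 4 tested was higher, a call lost without any 1 of the 4 Tspan8pos libraries. The part of these cells in the tuft, taste and eicosanoid values was not tested. Calls of endothelial markers were lost for Cdh5 and Pecam1 without either replicate of Tspan8posMHCIIhi or without replicate 1 of Tspan8posMHCIIlo, for Cdh5 also after thinning every library to the smallest total, and for Tek without replicate 2 of Tspan8posMHCIIlo.

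**Figure D3:**
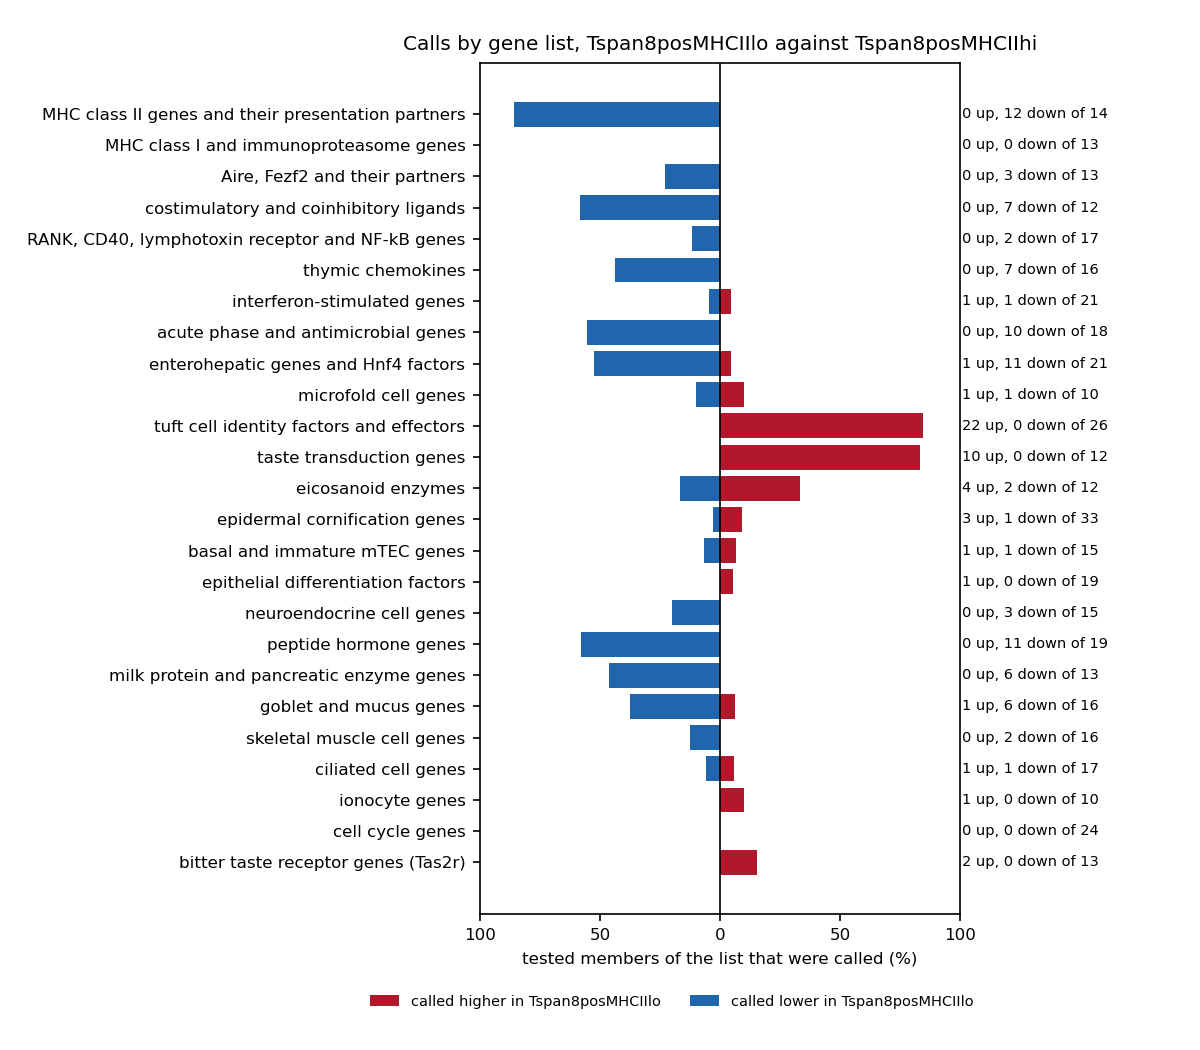
Bars give the percentage of the tested members of each gene list that were called higher (to the right) or lower (to the left) in Tspan8posMHCIIlo, with the counts printed beside them. The tuft and taste lists reach furthest to the right, with 22 of 26 and 10 of 12 genes, the MHCII list reaches furthest to the left, with 12 of 14, and the MHC class I and cell cycle lists have no bar.

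Outside these lists the largest gains were of mixed kind. Srpx2, a secreted protein of vessels and synapses, stood at 10.2 and 9.96 CPM against 99.5 and 89.4 CPM (log2 fold change 3.22, SE 0.24). Nrgn, the neuronal calmodulin-binding protein neurogranin, stood at 11.8 and 17.5 CPM against 163 and 135 CPM. The spectrin gene Sptb stood at 32.3 and 30.7 CPM against 167 and 149 CPM, and Kirrel3, a synaptic adhesion gene, at 27.5 and 32.1 CPM against 175 and 170 CPM. Chrdl1, a secreted BMP antagonist, stood at 0.996 and 4.06 CPM against 24.2 and 22.7 CPM, and Kcnd3, a potassium channel gene, at 2.59 and 4.88 CPM against 34.1 and 32.6 CPM. The homeobox gene Hmx3 stood at 2.99 and 6.30 CPM against 42.9 and 33.2 CPM, and the pseudogene Gm30694 at 4.18 and 3.86 CPM against 29.1 and 34.5 CPM. The calls of Chrdl1 and Kcnd3 were lost without replicate 2 of Tspan8posMHCIIlo, and that of Chrdl1 also without replicate 1. Kcnd3 overlaps the antisense gene Kcnd3os, so reads of the pair cannot be told apart where they overlap. At higher levels, Atp2a3, the calcium pump SERCA3, stood at 582 and 693 CPM against 2082 and 2009 CPM (log2 fold change 1.68, SE 0.16). The hydrolase gene Abhd2 (log2 fold change 1.03, SE 0.15) was higher, a call lost without replicate 2 of Tspan8posMHCIIhi or replicate 1 of Tspan8posMHCIIlo. The syndecan gene Sdc4 stood at 541 and 533 CPM against 1455 and 1302 CPM (log2 fold change 1.36, SE 0.13).

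A few of the largest fitted gains rested on unequal libraries. The tear and saliva gene Prol1 stood at 0 and 0.610 CPM in Tspan8posMHCIIhi and at 16.5 and 44.4 CPM in Tspan8posMHCIIlo, and its call was lost without replicate 2 of Tspan8posMHCIIlo. The neighbouring secretoglobin genes Scgb2b27 (0.597 and 0.203 CPM against 16.5 and 57.7 CPM) and Scgb1b27 (1.195 and 0.610 CPM against 17.6 and 86.4 CPM) had the same uneven replicates. Their calls were lost without that replicate, and for Scgb1b27 also without either replicate of Tspan8posMHCIIhi. Selp, the endothelial and platelet adhesion molecule P-selectin, stood at 4.98 and 1.63 CPM against 98.9 and 50.4 CPM, and its call was lost without either replicate of Tspan8posMHCIIhi and without replicate 1 of Tspan8posMHCIIlo. Gm10222, an unprocessed pseudogene that shares exon sequence with Gm28439, held 0 counts in Tspan8posMHCIIhi and 417 in Tspan8posMHCIIlo, at least 88.5-fold higher, with counts in all 4 Tspan8neg libraries, and is uncertain because the counting could split such copies.

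Epidermal genes were called in both directions, and no cell cycle gene was called. Of 33 cornification genes 3 were higher and 1 lower, with a median log2 fold change of 0.24. Over all genes tested 2.62% were higher and 4.59% lower, so these small counts alone do not set the list apart. At an unadjusted p under 0.05 there were 11 with higher and 3 with lower values, and the list summed to 18791 and 16616 CPM in Tspan8posMHCIIhi against 17835 and 17793 CPM in Tspan8posMHCIIlo. Klk7, a protease of skin shedding, stood at 276 and 231 CPM against 639 and 537 CPM (log2 fold change 1.21, SE 0.16), and Cdsn, the corneodesmosome protein, at 141 and 151 CPM against 359 and 341 CPM. Loricrin, the bulk protein of the cornified envelope, encoded by Lor, stood at 86.2 and 138 CPM against 247 and 359 CPM and was not called (adjusted p = 0.0181), and Krt10, a keratin of the suprabasal skin, stood at 1955 and 1687 CPM against 1629 and 1632 CPM. Of 15 basal and immature mTEC genes 1 was higher and 1 lower, and the basal keratin gene Krt5 stood at 1518 and 1460 CPM against 1432 and 1344 CPM. The higher call among the basal genes was lost without any 1 of the 4 Tspan8pos libraries. The lower call was lost without either replicate of Tspan8posMHCIIhi or without replicate 2 of Tspan8posMHCIIlo. Among 19 epithelial differentiation factors Ehf, an Ets factor, was the 1 called gene, at 346 and 299 CPM against 706 and 669 CPM (log2 fold change 1.09, SE 0.13), a call lost without replicate 2 of Tspan8posMHCIIhi. Its relative Elf3 (log2 fold change 0.51) and Klf4 (0.44), a Krüppel-like factor of skin, were not called. None of 24 cell cycle genes was called by edgeR or by DESeq2. With an unadjusted p under 0.05 there were 4, all with lower values, led by the checkpoint kinase gene Bub1 (log2 fold change -2.55, adjusted p = 0.0146), which passed with a replicate block (adjusted p = 0.0088) and without a filter on low counts (adjusted p = 0.00939). Of the 24 genes 21 had lower values in Tspan8posMHCIIlo, with a median log2 fold change of -0.389.

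Minor cell types were represented by scattered genes. Of 15 neuroendocrine genes tested 3 were lower, among them Insm1, a factor of endocrine cells, at 49.2 and 53.6 CPM against 15.4 and 7.51 CPM (log2 fold change -2.39, SE 0.26). Of 16 skeletal muscle genes 2 were lower, of 17 ciliated cell genes 1 was higher and 1 lower, and of 10 ionocyte genes 1 was higher. The shares over all genes tested were 2.62% higher and 4.59% lower. Without replicate 2 of Tspan8posMHCIIlo fewer neuroendocrine genes and no muscle gene were lower. The ionocyte call and the lower call among the ciliated cell genes were lost without any 1 of the 4 Tspan8pos libraries. Of 10 microfold cell genes Siglecf, which the tuft list also holds, was higher and Prg2 lower, a call lost without any 1 of the Tspan8pos or the Tspan8negMHCIIhi libraries. Gp2, the receptor by which microfold cells take up bacteria, stood at 700 and 768 CPM against 1463 and 1221 CPM and was not called (log2 fold change 0.87, adjusted p = 0.0152).

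For comparison, the same MHCII difference was taken within Tspan8neg cells. There 1644 genes (9.67%) were higher and 2222 (13.1%) were lower in MHCIIlo. Of the genes lower in Tspan8posMHCIIlo 645 were lower in Tspan8negMHCIIlo too, which is 82.7% of the former and 29% of the latter. Of the higher genes 229 were shared, which is 51.3% and 13.9%. The 2 comparisons use separate libraries, and whether the Tspan8 level itself makes them differ was not tested. The difference between them, tested as an interaction, was called in 783 genes (4.6%), among them 150 of the 1226 genes called within Tspan8pos. Of 205 genes higher only within Tspan8pos by their calls the interaction was called in 51, and of 133 such lower genes in 24. Leaving out a library of Tspan8pos left between 189 (replicate 2 of Tspan8posMHCIIlo) and 325 interaction calls (replicate 1 of Tspan8posMHCIIlo), with 271 and 301 without replicate 1 and 2 of Tspan8posMHCIIhi. Without replicate 1 or 2 of Tspan8negMHCIIhi there were 294 and 273, and without replicate 1 or 2 of Tspan8negMHCIIlo 1229 and 1385.

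Tuft cell genes were mostly shared by both Tspan8 levels. Of the 36 tuft, taste and eicosanoid genes higher in Tspan8posMHCIIlo, 32 were also higher in Tspan8negMHCIIlo, and 4 genes of the union had an interaction. Trpm5 differed by 2.78 (SE 0.18) within Tspan8pos and by 3.22 within Tspan8neg, an interaction of -0.44 with an adjusted p = 0.273. Spib differed by 0.99 within Tspan8pos and by -0.53 within Tspan8neg (interaction 1.52, adjusted p = 0.00218), and Siglecf by 2.54 and -0.69 (interaction 3.23, adjusted p = 0.00446). MHCII genes were lower in both, with a median log2 fold change of -2.18 within Tspan8pos and -1.63 within Tspan8neg. The interaction call of Spib was lost without replicate 2 of Tspan8negMHCIIhi, replicate 1 of Tspan8posMHCIIhi or either replicate of Tspan8posMHCIIlo, and that of Siglecf without any 1 of the Tspan8pos or Tspan8negMHCIIhi libraries. The difference was larger within Tspan8pos for Ciita (interaction -1.10, adjusted p = 0.00628) and for H2-DMb2 (interaction -1.15, adjusted p = 0.00943), but both calls were lost without any 1 of the Tspan8pos or Tspan8negMHCIIhi libraries and after thinning, and that of H2-DMb2 also without replicate 1 of Tspan8negMHCIIlo and with size factors from DESeq2. Aire, with -4.09 and -3.62, had no call for the interaction (adjusted p = 0.45).

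Interactions were also called among cornification, basal and interferon genes. Of the 33 cornification genes 13 were lower in Tspan8negMHCIIlo, and the interaction was called in 10. Of the 15 basal genes 9 were higher and 2 lower there, with 5 interactions, and of the 21 interferon-stimulated genes 11 were higher and 1 lower, with 6. For Klk7 the differences were 1.21 within Tspan8pos and -2.17 within Tspan8neg (interaction 3.38, adjusted p = 0.000175), and for Cdsn 1.26 and -0.98 (interaction 2.24, adjusted p = 0.00102). Krt5 differed by -0.10 within Tspan8pos and by 2.73 within Tspan8neg (interaction -2.83, adjusted p = 0.000183), and Ccl21a by 0.47 and 4.004 (interaction -3.54, adjusted p = 0.000234). Oas2 was higher in both, by 2.06 and 3.73 (interaction -1.68, adjusted p = 0.0024), a call lost after thinning, without either replicate of Tspan8negMHCIIhi or Tspan8posMHCIIlo, and without replicate 2 of Tspan8posMHCIIhi. The interactions with the smallest p were in Hal, the histidase of skin and liver, with -0.22 within Tspan8pos and -4.08 within Tspan8neg (interaction 3.86, adjusted p = 8.47e-05), and in the bicarbonate transporter gene Slc4a8, with 0.71 and -2.41 (interaction 3.12, adjusted p = 8.47e-05). The adhesion receptor gene Adgrg6, at 78.7 and 67.9 CPM in Tspan8posMHCIIhi and at 385 and 355 CPM in Tspan8posMHCIIlo, differed by 2.33 within Tspan8pos and by -0.67 within Tspan8neg (interaction 3.01, adjusted p = 0.000175). Sptb differed by 2.32 and 0.10 (interaction 2.22, adjusted p = 0.000243), and Strip2 by 1.75 and -0.89 (interaction 2.64, adjusted p = 0.000137). Psca, a surface protein of secretory epithelia, differed by 0.21 and -4.12 (interaction 4.32, adjusted p = 0.000175), and Hmx3 by 3.01 and -1.32 (interaction 4.33, adjusted p = 0.00157), a call lost without replicate 2 of Tspan8posMHCIIlo. In the other direction, Boc, a hedgehog co-receptor, differed by 1.07 within Tspan8pos and by 5.04 within Tspan8neg (interaction -3.97). Of the insulin-like growth factor binding protein genes, Igfbp5 differed by 0.76 and 3.03 (interaction -2.27). Igfbp4 differed by -0.06 and 2.95 (interaction -3.01), with a gain within Tspan8neg only. The matrix protein gene Ccn1 differed by 0.48 and 2.73 (interaction -2.25). The call of Boc within Tspan8pos was lost in 8 of 17 alternative fits, among them those without any 1 of the Tspan8pos libraries.

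**Figure D4:**
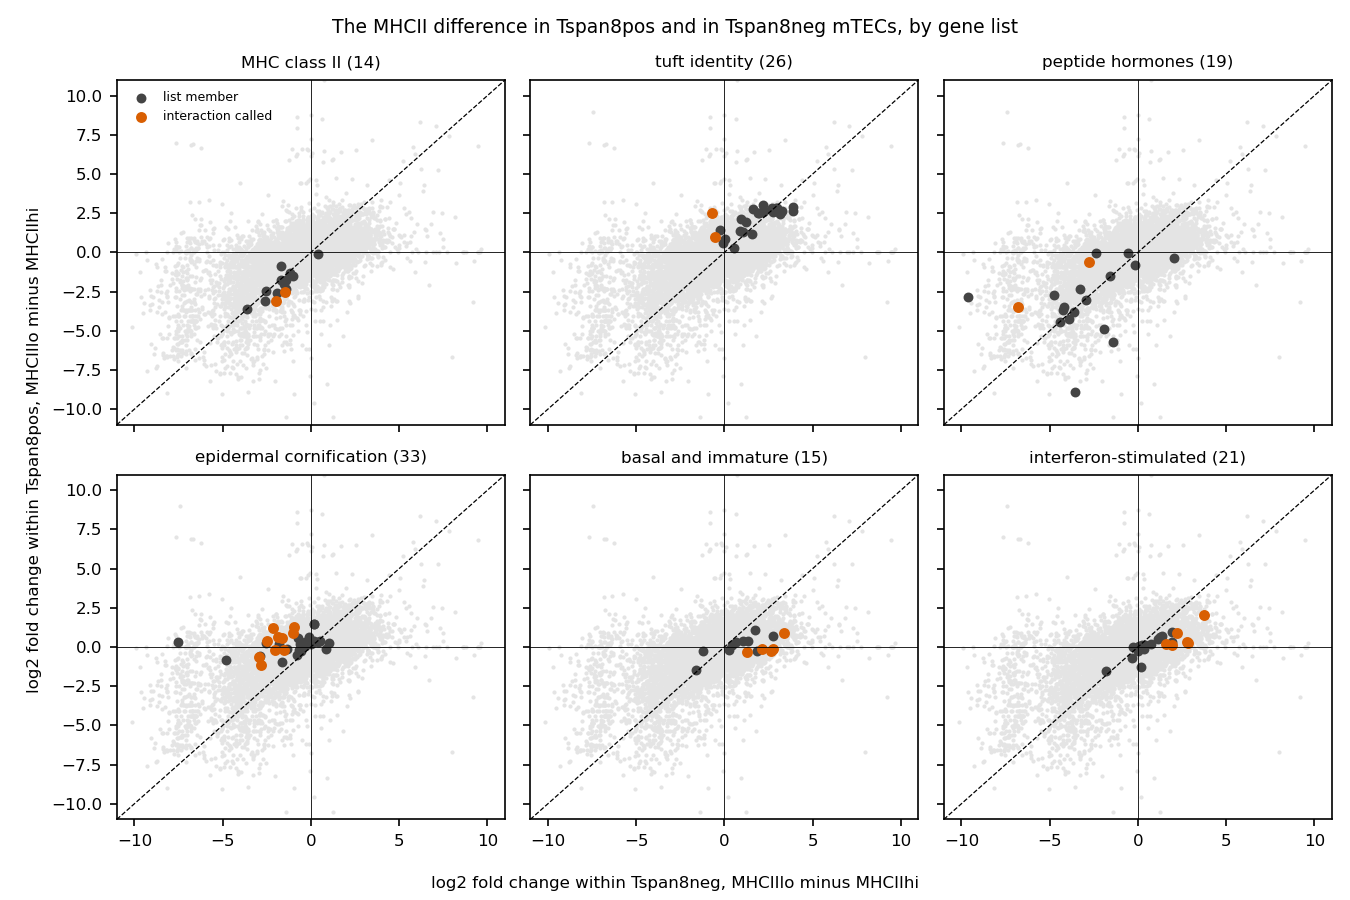
In each of 6 panels the x axis gives the log2 fold change, MHCIIlo minus MHCIIhi, within Tspan8neg and the y axis that within Tspan8pos, with all genes tested in grey, the members of 1 list in dark grey, members with a called interaction in orange and a dashed line of equal change. MHCII genes lie at the lower left and tuft genes at the upper right near the dashed line, while several cornification genes lie to the left and several basal genes to the right at small values on the y axis. The axes end at 11, with 1 gene outside.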

How the data were processed

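RNA-seq libraries of sorted mTECs were grouped by the labels, which give the Tspan8 gate, the MHCII gate and the replicate. Estimated counts, deposited by the authors as 1 table of whole numbers without normalization, had been made with Salmon 1.8.0 on a Gencode mouse transcriptome. The authors' own tests, made with DESeq2 1.30.0, were not used. The labels name a strand-specific kit and the study's methods a tagmentation of amplified cDNA, so genes that overlap on opposite strands are uncertain. Beside the pairs given in the Results, such overlaps are annotated for Trpm5, Avil, Sptb, H2-Oa, Ptgs1, Adgrg6, Krt5, Selp and Tspan8, among others. The table holds 25466 genes, of which 25336 matched the GENCODE annotation of GRCm38 used for symbols and coordinates, and promoter sequences came from RefSeq (GRCm38.p6).

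Counts were tested in R 4.3.3 with edgeR 4.0.16: quasi-likelihood fits of all 8 libraries with a mean per group, TMM scaling and filterByExpr, which kept 17006 genes. P-values are two-sided and Benjamini-Hochberg adjusted over these genes. Calls needed both an adjusted p below 0.01 and a log2 fold change of 1 or more in size. The SE was derived from the F statistic. Per-library levels are TMM-scaled CPM. With 2 libraries a group the spread comes from 4 residual degrees of freedom, pooled over the groups. Library totals ranged from 1941518 to 7783841, and intervals and floors (3 counts) cover counting error only, since reads were amplified and carry no molecular identifiers. The interaction is the Tspan8pos difference minus the Tspan8neg difference.

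The comparison, gene lists and thresholds were chosen with earlier results of these data known. Genes named are list members, the 12 called genes with the largest change, the 8 with the smallest p and the 5 of highest level in each direction, where the first 2 sets need a mean of at least 10 CPM over the 4 libraries and no overlap of the groups, and the 5 interactions with the smallest p in each direction. Of the lists a few members each are named, for their known roles or their size. Tspan8 was added as a check of the gate. Motif letters were chosen after the sequences were seen. Alternatives were DESeq2 1.42.0 (Wald test, or size factors in the edgeR fit), other filters, 4 libraries only, a replicate block, other thresholds, thinning and leaving out each library. The scripts were tested on simulated data.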

Additional observations from a re-analysis of the deposited data

Results flagged for a closer look

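By the interaction term of edgeR, the MHCII difference within Tspan8pos differed from that within Tspan8neg in 783 genes. The rule was an adjusted p below 0.01 and a size of 1 or more on the log2 scale. The genes below are those of the 783 whose interaction value is given in the Results. Each value is the Tspan8pos difference minus the Tspan8neg difference, over 8 libraries. It was positive for Hmx3 (4.33), Psca (4.32), Hal (3.86), Klk7 (3.38), Siglecf (3.23), Slc4a8 (3.12), Adgrg6 (3.01), Strip2 (2.64), Cdsn (2.24), Sptb (2.22) and Spib (1.52). It was negative for Boc (-3.97), Ccl21a (-3.54), Igfbp4 (-3.01), Krt5 (-2.83), Igfbp5 (-2.27), Ccn1 (-2.25), Oas2 (-1.68), H2-DMb2 (-1.15) and Ciita (-1.10). The calls of Hmx3, Siglecf, Spib, Oas2, H2-DMb2 and Ciita were lost when some single libraries were left out, and those of the other 14 genes were kept in every fit tried.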

How the results depend on the processing

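Across the other settings that used all libraries, between 386 and 638 genes were higher and between 587 and 1220 lower in Tspan8posMHCIIlo, the largest with an adjusted p of 0.05. Leaving out 1 library gave 199 to 580 higher and 228 to 1114 lower genes, 2360 to 3759 genes called within Tspan8neg, 31 to 36 tuft, taste and eicosanoid genes, 10 to 12 MHCII genes and 189 to 1385 genes with an interaction, where the lone library of a group is assumed to vary like the other groups. Without replicate 2 of Tspan8posMHCIIlo, 415 of the 1226 calls were kept, and without replicate 1, 692. The interaction count was 1267 without a filter on low counts and 1754 at an adjusted p of 0.05. The mean number of genes with at least 1 count was lower in Tspan8posMHCIIlo by -1867 without thinning, by -665.5 at 3 counts and by -309.5 at 10. Neither the labels nor the study say whether same-numbered libraries share mice, so the numbers were not taken as pairs. Over all genes tested, the deviations of same-numbered libraries had correlations from 0.00402 to 0.0924. These values include the counting noise of genes at low level and cannot exclude a shared replicate effect. With the replicate block the counts were 509 higher and 895 lower, 1213 of the 1226 calls were kept, and the interaction count was 1236. DESeq2's Wald test gave 437 higher and 753 lower genes and kept 1100 of the calls. No called gene changed its direction under any setting. Igfbp4, not called within Tspan8pos, moved between -0.136 and 0.001 without replicate 1 or 2 of Tspan8posMHCIIhi. The causes of these shifts were not tested. Depth limits genes near the floor most: with every library thinned to the smallest total 891 of the 1226 calls were kept.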
